A study of Felis catus with 12 samples.

Results

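The genes described here encode the large chaperone families of the cell: the 70-kDa, 90-kDa and 110-kDa heat shock proteins (HSP70, HSP90 and HSP110), the J-domain proteins of the DNAJA, DNAJB and DNAJC classes, and the chaperonins of cytosol and mitochondrion. They were chosen by gene symbol alone, which gave 70 of the 30785 genes listed. By the place assigned here to their proteins, 38 were counted as cytosolic or nuclear, 10 for the endoplasmic reticulum (ER) and 9 for the mitochondrion. The other 13 were put elsewhere or given no place, and may include proteins of these compartments. The inducible HSP70 genes HSPA1A and HSPA1B were not analysed here.

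Chaperones of the HSP70 family bind exposed hydrophobic stretches of unfolded proteins and release them in cycles of ATP hydrolysis. J-domain proteins deliver the clients and stimulate that hydrolysis, and HSP110 proteins exchange the nucleotide. HSP90 takes over clients that are partly folded, while the chaperonins enclose a chain in a ring-shaped chamber. Each compartment keeps its own set: HSPA8, HSP90AA1, HSP90AB1 and the chaperonin TRiC in the cytosol, HSPA5 (BiP) and HSP90B1 (GRP94) in the ER, and HSPA9 (mortalin), HSPD1 and HSPE1 in the mitochondrion. In heart muscle they serve a dense protein lattice that is renewed while it contracts.

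RNA from the left ventricular free wall of 12 cats, collected after death, was read directly, as RNA molecules, by nanopore sequencing. Each cat gave 1 library, and each of 3 flow cells (A, B and C) carried 4 of them. They were veterinary patients, most of which had been euthanised, and HF and ATE arose spontaneously. By the cat number in the labels, 6 libraries were from cats with congestive heart failure (HF; cats 11, 30 and 31 on flow cell A, 15 and 35 on B and 37 on C; 3 to 18 years old where the age was known, which was in 5), 3 from cats with arterial thromboembolism (ATE; cats 23 on A, 10 on B and 38 on C; 5 to 13 years) and 1 from cat 36, without known cardiac death (flow cell B; 2 years). The libraries labelled as cats 22 and 29, both on flow cell C, carry numbers that are not among the cats the study names as sequenced, so which animals they came from is not known. They entered the comparisons of flow cells and no comparison of outcomes, age or fibrosis, apart from a named alternative. The other 10 cats were domestic shorthairs except for 1 Birman (cat 11) and 2 Maine Coons (cats 15 and 35). Diagnosis, breed, age and flow cell were not assigned by design, so any of them can coincide with another. The study stored the bodies cold before processing. Storage time and RNA quality of each cat entered no comparison here, and they may coincide with these labels too.

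The libraries held 789257 to 2263110 reads on genes. Values are the reads of a gene divided by a size factor of the library, as deposited. In these units 1 read was worth 0.483 to 1.43, so low values rest on few reads. Levels are compared between libraries and not between genes. Heart muscle content was described with 13 cardiomyocyte markers, which summed to 150537 to 399200 per library. The sum of 5 atrial markers was 137 to 3780 and was highest in cats 31 and 35. What raised the atrial sum in these cats was not tested. The atrial marker BMP10 had no read in any library. Flow cell A stood apart. Of 8715 genes with enough reads to be tested, 446 differed between it and the other flow cells in limma's test. In bulk tissue, fewer cells of a type and less RNA per cell cannot be told apart.

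The chaperone genes took between 0.549% (cat 15) and 1.01% (cat 11) of all reads. The share was 0.822% to 1.01% on flow cell A, 0.549% to 0.665% on B and 0.685% to 0.789% on C, so that the 3 flow cells did not overlap in it. A share of reads depends on the rest of the library, and no other gene set was put beside it. In scaled values, flow cell A and the others did not overlap for 3 of 56 tested members, against 4.23% of all tested genes. Within the set the division between compartments varied little. Cytosolic members held 63.5% to 73.1% of the reads, ER members 13.8% to 19.5% and mitochondrial members 10.4% to 14.8%. Cat 10 had the smallest cytosolic share and cat 31 the largest, while the ER share was highest in the ATE cats 23 (19.5%) and 10 (19.3%). Cat 38, also with ATE, was at 15.5%, inside the 14.5% to 17.1% of the HF cats. The 5 members DNAJB3, DNAJB7, DNAJB8, DNAJC5B and DNAJC5G had no read in 15753626, which allows a level of up to 0.19 CPM (reads scaled to a common library total, here for 3 reads over all libraries) by counting error alone. Another 9 members were too low to test. CCT6B and DNAJC22 had 1 read in all, DNAJB13 and CCT8L2 had 4 each, and DNAJC27, DNAJC6, HSPA12A, DNAJC12 and DNAJC30 had 21 to 57 over the 12 libraries. CCT6B is a paralog of the chaperonin subunit CCT6A, which had 48 to 504 reads per library.

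Among the cytosolic HSP70 and HSP90 members, HSPA8, the constitutive HSP70 that also uncoats clathrin, ranged from 666 in cat 15 to 1588 in cat 22 with a median of 1153. HSP90AB1, the constitutive HSP90, ranged from 579 (cat 15) to 1127 (cat 29) with a median of 761. HSP90AA1, the inducible HSP90, ranged from 161 (cat 15) to 535 (cat 11) with a median of 322. Cat 15 was thus lowest for all of these genes, and the highest cat differed for each. Processed pseudogenes of HSPA8, of both HSP90 genes and of the chaperonin genes are common in mammals, and reads that fit such a copy may have been split or lost in counting, so that these levels are uncertain to that extent.

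The ratio of HSP90AA1 to HSP90AB1 separated the flow cells. It was 0.699, 0.640, 0.564 and 0.532 in cats 11, 23, 30 and 31 on flow cell A, and 0.278 to 0.494 (median 0.409) in the 8 other libraries. No library of flow cells B and C reached the lowest of flow cell A. In the ER the ratio of HSP90B1 to HSPA5, which sets an HSP90 against an HSP70 and is no pair of paralogs, was 2.65 to 3.99 on flow cell A, 2.75 to 7.97 on B and 5.08 to 7.78 on C, so that A and C did not overlap and B spanned both. These ratios are within a library and describe how unequally the members of a pair differed. By themselves they do not show which of them changed, and they were chosen after the values were seen. In the limma fit of flow cell A against the others, HSP90AA1 was at a fold of 1.75 and HSP90AB1 at 1.11. HSPA5 was at 1.6 and HSP90B1 at 0.967. The separation of the HSP90AA1 ratio is thus no result apart from that of HSP90AA1, given below.

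In the mitochondrion, HSPA9, the HSP70 that pulls precursor proteins through the inner membrane, varied little. It ranged from 332 (cat 30) to 452 (cat 29), and its coefficient of variation (CV, the SD over the 12 libraries as a percentage of their mean) was 9.98% against a counting error of 5.15%. HSPD1, the mitochondrial chaperonin (HSP60), ranged from 121 in cat 35 to 472 in cat 11 with a CV of 33.0%. Its lid HSPE1 (HSP10) ranged from 44.1 in cat 35 to 162 in cat 29 with a CV of 36.4%. Both partners of the chaperonin were lowest in cats 35 and 15 (HSPD1 121 and 146, HSPE1 44.1 and 44.9), and no other library had less than 244 of HSPD1 or 83.1 of HSPE1. HSPD1 divided by HSPA9 accordingly ran from 0.345 in cat 35 to 1.19 in cat 11.

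**Figure D1:**
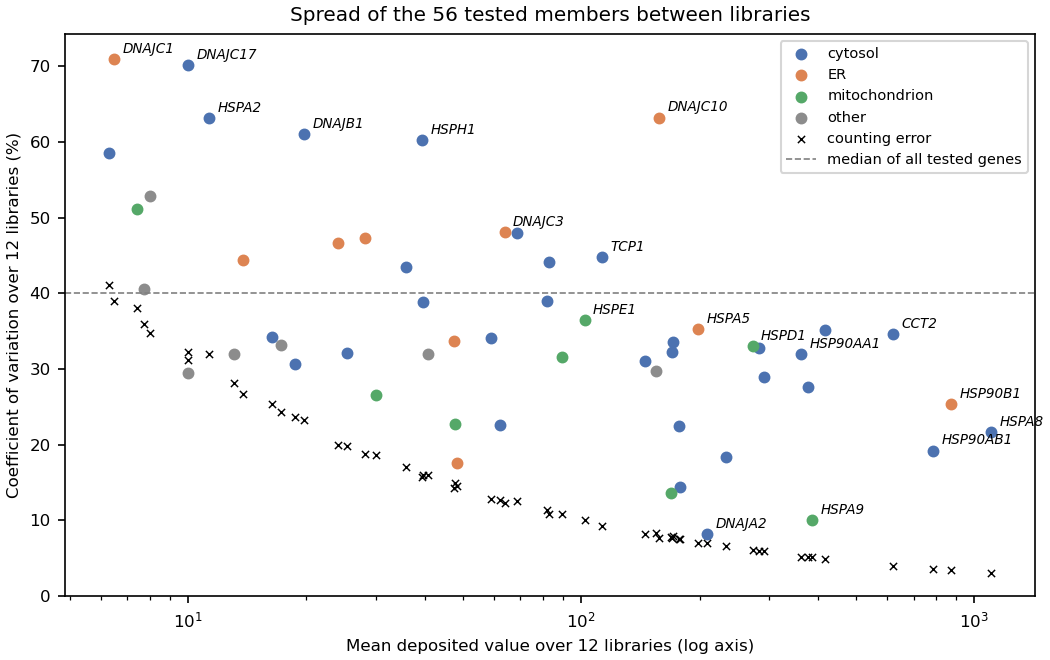
Coefficient of variation over the 12 libraries (vertical axis, %) against mean deposited value (horizontal log axis) for the 56 tested members, coloured by compartment, with the counting error of each member as a cross and the median of all tested genes as a dashed line. DNAJA2 (8.12%, counting error 6.98%) and HSPA9 (9.98%, counting error 5.15%) have the lowest values, while HSPH1 (60.2%), DNAJB1 (61.0%) and DNAJC10 (63.2%) lie far above their counting errors.

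The plot of spread against level shows how unequally the members varied. The most even member was DNAJA2, a J-protein partner of cytosolic HSP70, with values between 183 and 231 and a CV of 8.12%, and only 0.0115% of the 8715 tested genes had a lower CV. HSPA9 followed, with 0.0803% of the genes below it, then DNAJC15, a J-protein of the mitochondrial inner membrane (13.6%), and DNAJB6, which holds back aggregation (14.4%). The 56 tested members had a median CV of 33.4%, with a median counting error of 12.4%. All tested genes had a median CV of 40.0% and a median counting error of 19.2%, since they had fewer reads (median 25.5 against 63.0), so the medians cannot be set against each other without that difference. By compartment the median CV was 33.5% in the cytosol, 45.5% in the ER and 29.1% in the mitochondrion.

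The 6 tested members with the largest CV were DNAJC1 (70.9%), DNAJC17 (70.1%), DNAJC10 (63.2%), HSPA2 (63.1%), DNAJB1 (61.0%) and HSPH1 (60.2%). Of these, DNAJC1, an ER membrane J-protein (0 to 16 reads), DNAJC17, a nuclear J-protein (0 to 32), and HSPA2, an HSP70 best known from the testis (2 to 20), were low, and counting error alone gave a CV of 39.0%, 31.2% and 32.0%. DNAJC10 (ERdj5), a disulfide reductase of the ER, had 50 to 561 reads. It stood at 431 in cat 31 and 271 in cat 11 and at 67.5 to 168 in the other libraries. HSPH1 (HSP110) and DNAJB1 (HSP40) are classical heat-inducible genes and are described next.

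**Figure D2:**
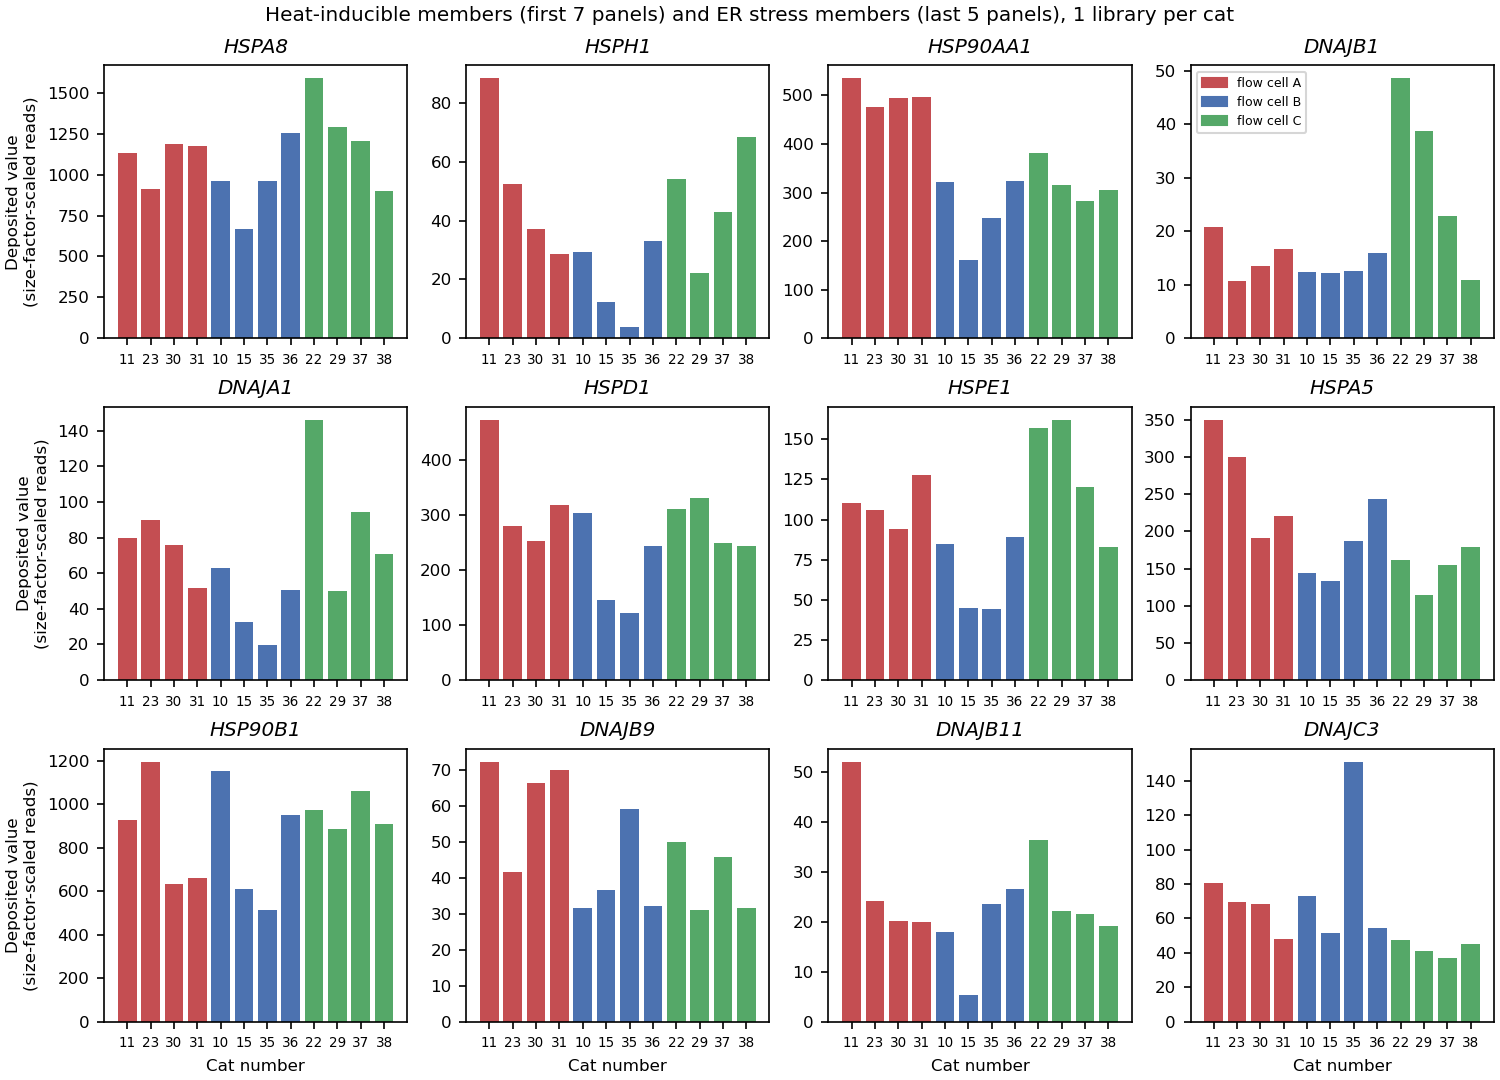
Deposited value (vertical axis, reads scaled by the library's size factor) of 7 members listed as heat-inducible, HSPA8 included, and 5 listed for ER stress in each cat (horizontal axis), with bars coloured by flow cell. Cats 15 and 35 are the lowest libraries for HSPH1, DNAJA1, HSPD1 and HSPE1, and DNAJC3 is highest in cat 35.

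Most heat-inducible members shared their lowest libraries. HSPH1 was 12.3 in cat 15 and 3.94 in cat 35, between 22.2 and 68.4 in the other libraries of flow cells B and C, and 88.3, 52.4, 37 and 28.7 in cats 11, 23, 30 and 31 on flow cell A, a 22.4-fold range over all cats. DNAJA1, the J-protein most used by cytosolic HSP70, was 32.7 in cat 15 and 19.7 in cat 35, and 49.9 to 146 elsewhere. The list called heat-inducible here holds 7 members (HSPA8, HSPH1, HSP90AA1, DNAJB1, DNAJA1, HSPD1 and HSPE1), of which HSPA8 is largely constitutive. Over these 7, cat 15 was among the 2 lowest libraries for 6 and cat 35 for 5. The exceptions were the DNAJB1 of both cats, 12.3 and 12.6 where 10.7 (cat 23) was the lowest, and the HSPA8 of cat 35 (963).

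At the other end, cat 22 was among the 2 highest libraries for 4 of the 7 genes, with the highest HSPA8 (1588), DNAJB1 (48.6) and DNAJA1 (146). Cat 29, also on flow cell C, was among the 2 highest for 4, with DNAJB1 at 38.8 and HSPE1 at 162. Cat 11 was the highest for HSPH1, HSP90AA1 and HSPD1. Averaged over the 7 genes, the log2 deviation from the mean of the 12 libraries was -0.90 in cat 15 and -1.08 in cat 35, and 0.73 in cat 22 and 0.55 in cat 11, with all others between -0.10 and 0.23. Without HSPA8, a list set after the values were seen, the mean was -0.94 in cat 15, -1.23 in cat 35, 0.76 in cat 22 and 0.63 in cat 11. Cats 15 and 35 both had HF and were on flow cell B, and they were the only Maine Coons among the 10 cats of known identity. The study lists cat 22 as a Maine Coon too, and the library with that label had the highest mean (0.73).

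Other values of these libraries moved alongside. The summed level of 12 immediate early genes, which answer to acute stimuli, was 286 in cat 15, the lowest, and 1130 in cat 22, the highest, with 374 in cat 35 and 821 in cat 11, but it was 356 in cat 29, whose heat-inducible members were high. Small heat shock proteins summed to 10472 in cat 15 and 11053 in cat 35, against 13918 to 51363 elsewhere. The sum of 9 leukocyte markers was 521 in cat 35, against 49.0 to 246 in all others, and the sum of 8 fibroblast markers was lowest in cat 15 (359). Cat 15 also had the highest sum of 8 endothelial markers (1555, against 452 to 1120 elsewhere) and of 2 erythrocyte markers (59.9, against 0 to 19.1), and the lowest sum of 5 smooth muscle markers (93.9, against 123 to 1277). Of these lists, MS4A1, LYZ and the immediate early gene FOSB had no read in any library. Their part in the differences of the heat-inducible members was not tested.

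The ER stress members shared some of these libraries and not others. Over the 5 of them, cat 15 again had the lowest mean log2 deviation (-0.65) and was among the 2 lowest libraries for 3, and cat 11 had the highest (0.67), but cat 35 was at 0.22 and cat 22 at 0.11. HSPA5, the master chaperone of the ER, was 350, 300, 191 and 221 in cats 11, 23, 30 and 31 and 114 to 244 (median 158) in the other libraries. HSP90B1 ranged from 514 in cat 35 to 1195 in cat 23. DNAJC3 (p58IPK), a J-protein that also restrains the kinase PERK, was 151 in cat 35 and 37.2 to 80.6 elsewhere, and DNAJB9 (ERdj4) was 59.1 in that cat, above the 31 to 50.0 of the remaining libraries of flow cells B and C. In cat 35, therefore, DNAJC3 was at its highest while HSP90B1 was at its lowest. DNAJB11 (ERdj3), a secreted partner of HSPA5, was 5.45 in cat 15, from 4 reads, and 52.1 in cat 11. Cat 11 was among the 2 highest libraries for 4 of these 5 ER genes.

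**Figure D3:**
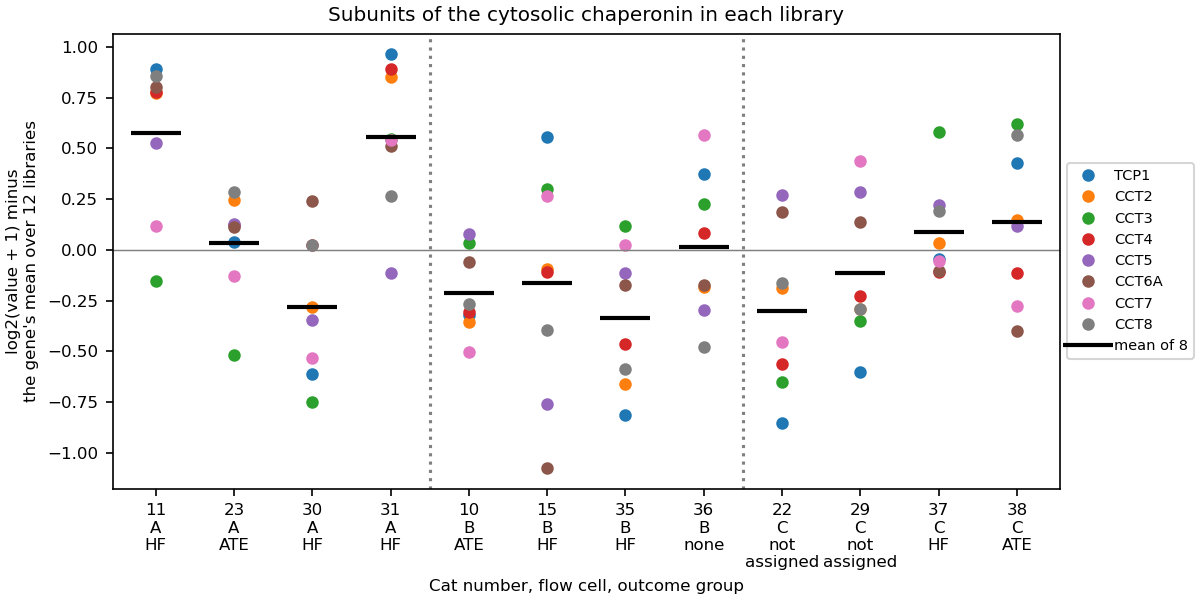
Value of each of the 8 TRiC subunits in each library, as log2(value + 1) minus the gene's mean over 12 libraries (vertical axis), with the mean of the 8 as a black dash and dotted lines between flow cells. Cats 11 and 31 have the highest means (0.57 and 0.56), and cat 35 has the lowest (-0.33).

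TRiC, which folds actin and tubulin, is built from 1 copy each of 8 subunits in each of its rings. All of the 8 (TCP1, CCT2, CCT3, CCT4, CCT5, CCT6A, CCT7 and CCT8) were tested. CCT2 was 1011, 700, 486 and 1065 in cats 11, 23, 30 and 31 and 374 to 655 (median 520) in the other libraries. CCT4 was 682, 434, 404 and 739 in the same cats of flow cell A and 269 to 421 (median 354) elsewhere, so that cat 36 alone reached above the lowest library of flow cell A. Cats 11 and 31 were highest for both subunits. TCP1 shared those peaks with 192 and 202, but next came cat 15 (152), which had the lowest CCT6A (65.4) and CCT5 (102).

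The subunits did not keep a fixed proportion. CCT7 was highest in cat 36 (538) and CCT3 in cat 38 (250), and CCT4 divided by CCT7 ran from 0.690 in cat 29 to 1.73 in cat 11. On flow cell A this ratio was 1.30 to 1.73, and in the other libraries 0.690 to 1.26, without overlap. The pair was chosen after the values were seen, and ratios of other subunit pairs were not taken. In the limma fit of flow cell A against the others CCT4 was at a fold of 1.6 and CCT7 at 0.999, so the separation is no result of its own. Across all 12 libraries the subunits had a median CV of 32.5%, from 22.5% for CCT5 to 44.8% for TCP1.

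The comparison of flow cell A with the other flow cells asks how far a technical label of the libraries divided the chaperone genes. HSP90AA1 was higher and DNAJC4, a J-protein of uncertain role, was lower on flow cell A, and no other member passed the test. HSP90AA1 was 535, 475, 495 and 497 in cats 11, 23, 30 and 31, against 161 to 381 (median 311) in the 8 other libraries. The groups did not overlap (501 ± 25.0 against 292 ± 65.1, SD, n = 4 and 8), and the log2 difference of the limma fit was 0.81 (SE 0.20, a fold of 1.75, limma adjusted p = 0.0308). DNAJC4 was 80.1, 117, 109 and 111 against 121 to 211 (median 188), again without overlap (104 ± 16.5 against 180 ± 32.1, SD, n = 4 and 8), with a limma log2 difference of -0.77 (SE 0.20, limma adjusted p = 0.0315).

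These were 2 of 56 members tested, or 3.57%, where 5.12% of all 8715 tested genes passed (1.62% higher and 3.5% lower). At an unadjusted limma p under 0.05 there were 15 members against 21.4% of all genes, 11 of them higher (9.42% of all genes) and 4 lower (12.0%). Groups that did not overlap were found for 3 members (HSP90AA1, DNAJC4 and DNAJB2) against 4.23% of all genes. The adjusted calls and the groups without overlap were thus near the share of all genes. The unadjusted share of higher members, 19.6%, was above it, and it was 40.0% (4 of 10) in the ER, with HSPA5, DNAJC10, DNAJB14 and DNAJB9. Members had more reads than all tested genes (median 63.0 against 25.5) and less counting error (median 12.4% against 19.2%). The unadjusted shares cannot be set against each other without that difference. DNAJB2, a J-protein that guides clients to the proteasome, was 5.31 to 29.6 on flow cell A and 31.5 to 61.4 elsewhere (log2 difference -1.24, SE 0.36, limma adjusted p = 0.0538). CCT4 (0.68, SE 0.20, limma adjusted p = 0.0566) and DNAJC10 (0.98, SE 0.30, limma adjusted p = 0.066) came next. DNAJB4, a J-protein of striated muscle and among the 10 members with the highest median, was 382, 375, 297 and 444 on flow cell A and 169 to 343 (median 253) elsewhere (0.60, SE 0.21, limma adjusted p = 0.108). Calls of the other tools differed: edgeR on the recovered reads gave 4 members (HSP90AA1, CCT4, DNAJC10 and DNAJC4) and DESeq2 gave 7, adding CCT2, HSPA5 and DNAJB2.

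**Figure D4:**
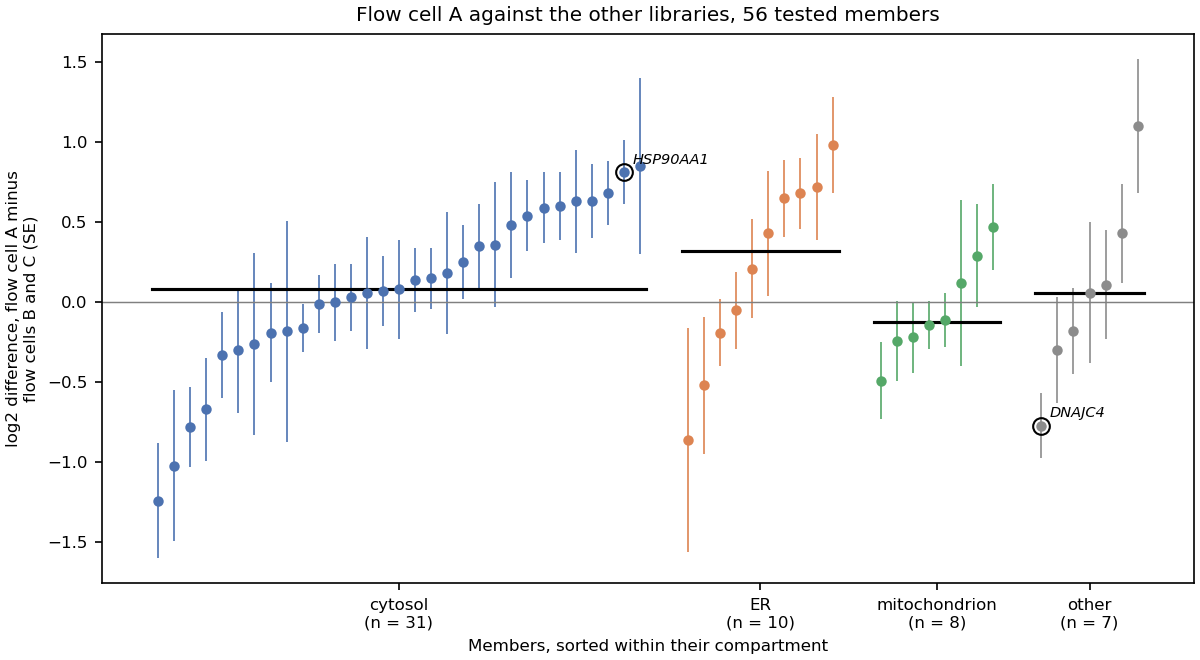
Log2 difference between flow cell A and flow cells B and C with its SE (vertical axis) for the 56 tested members, sorted within compartment (horizontal axis), with the median of each compartment as a black line and members with a limma adjusted p under 0.05 circled. HSP90AA1 (0.81) and DNAJC4 (-0.77) are circled, and the compartment medians are 0.08 in the cytosol, 0.32 in the ER and -0.13 in the mitochondrion.

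By compartment, the median log2 difference was 0.08 over 31 cytosolic, 0.32 over 10 ER and -0.13 over 8 mitochondrial members, against 0.03 over all tested genes. The 7 tested members put elsewhere or given no place had a median of 0.06, from -0.77 for DNAJC4 to 1.10 for DNAJC14. Placing any of these 7 in a compartment would change its median and its counts. A difference above 0 was found for 32 members in all, where 52.4% of all genes had one, and for 19 cytosolic, 6 ER and 3 mitochondrial members. In the ER it ran from -0.86 for DNAJC1 to 0.98 for DNAJC10, and in the mitochondrion from -0.49 for DNAJA3 (TID1), a J-protein of the matrix, to 0.47 for HSPD1. Within the heat-inducible members the differences ranged from -0.30 for DNAJB1 to 0.85 for HSPH1 (SE 0.55, and 0.50 without cat 35), and HSPA8 was at 0.03 (SE 0.21, limma adjusted p = 0.944). Without size factors the median of all genes moved to 0.41, and the compartment medians moved with it to 0.47, 0.70 and 0.27, so that the mitochondrial median stayed below that of all genes and the ER median above it. Against flow cell C alone the cytosolic median turned to -0.018, that of the heat-inducible list from 0.363 to -0.158 and that of all members from 0.077 to -0.118, while the mitochondrial median was -0.272 and the ER median 0.382.

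The call of HSP90AA1 depended on 2 libraries. Without cat 11 its limma adjusted p was 0.119 and without cat 31 it was 0.0813, at log2 differences of 0.78 and 0.81, as the number of all genes called fell to 51 and 129. DNAJC4 was lost in 5 of the 12 fits that left out 1 library (cats 11, 15, 29, 31 and 36), at a limma adjusted p of 0.0535 to 0.154. Set against flow cell B alone, HSP90AA1 was at 0.98 (limma adjusted p = 0.0597) and against C alone at 0.65 (0.122).

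Markers of some cell types moved with this comparison. None of the 8 endothelial, 5 leukocyte or 3 atrial markers tested was called. Of 13 cardiomyocyte markers 7 were called lower on flow cell A, among them TNNT2, TNNI3 and MYL3, and their sum was 150537 to 214740 there against 163279 to 399200. Of 8 fibroblast markers 2 were called higher (COL1A1 and COL3A1), with sums of 1256 to 3471 against 359 to 1931. Of the 4 smooth muscle markers tested 2 were called higher (TAGLN and CNN1), with sums of 381 to 1277 against 93.9 to 288. No cardiomyocyte, fibroblast or smooth muscle marker analysed was at 0 in every library. Their part in the differences of HSP90AA1 and DNAJC4 was not tested, and the cats on a flow cell and the flow cell itself cannot be told apart.

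Other folding genes, in lists drawn up by function, gave calls in both directions. Among small heat shock proteins, HSPB1 (1.15, limma adjusted p = 0.0443) and CRYAB (1.26, limma adjusted p = 0.0341), the alpha-B crystallin that guards desmin, were called higher out of 7 tested, and the median was 0.29. Mitochondrial folding and protease factors had 3 of 14 called lower on flow cell A: CLPP, AFG3L2 and PHB2, a protease subunit, a membrane protease and a prohibitin (median -0.29). Of 7 prefoldin subunits tested, which hand actin and tubulin to TRiC, PFDN5 was called lower (-0.73, limma adjusted p = 0.0227). None of 20 cytosolic co-chaperones, 15 ER folding factors, 7 unfolded protein response factors or 3 heat shock factors tested was called by limma, with 3, 4, 0 and 1 at an unadjusted p under 0.05. HSF1, the transcription factor that drives heat shock genes, was 120 to 196 on flow cell A and 120 to 339 elsewhere.

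A comparison of flow cells B and C, added after the values were seen, held 4 libraries on each side. No member was called by limma, where 3 of all tested genes (0.0344%) were. At an unadjusted limma p under 0.05 there were 8 members against 7.86% of all genes, 6 of them lower (3.9%) and 2 higher (3.96%). The larger read numbers of the members limit this comparison too. Lower on B were HSPH1 (-1.46, SE 0.56), DNAJA1 (-1.12, SE 0.39), HSPE1 (-1.01, SE 0.31), DNAJB1 (-0.95, SE 0.42), CCT8 and CCT5, and higher were DNAJC3 (0.80, SE 0.33) and DNAJC10. The limma adjusted p of these 8 was 0.446 to 0.632. A negative difference was found for 37 of 56 members, against 49.8% of all genes. All 7 members of the heat-inducible list had one. DNAJB1 was 12.3 to 16 on B, and on C it was 48.6 and 38.8 in cats 22 and 29 and 22.9 and 11.0 in cats 37 and 38. HSPE1 was 84.5, 44.9, 44.1 and 89.0 in cats 10, 15, 35 and 36 on B, and 157, 162, 120 and 83.1 in cats 22, 29, 37 and 38 on C, which overlapped only through cats 10, 36 and 38.

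**Figure D5:**
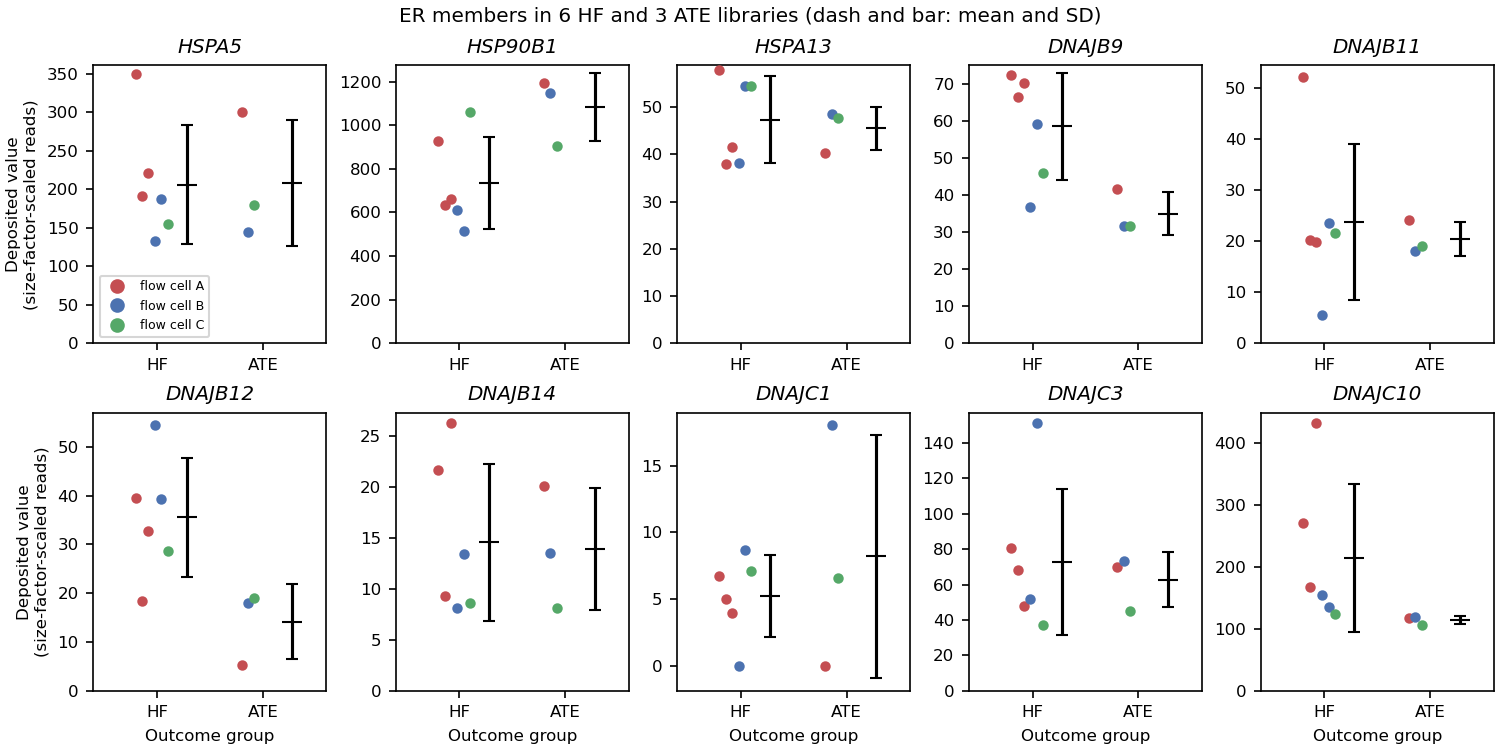
Deposited value (vertical axis, reads scaled by the library's size factor) of the 10 ER members in 6 HF and 3 ATE libraries, with points coloured by flow cell and the mean and SD beside them. DNAJC10 does not overlap between the groups (HF 123 to 431, ATE 106 to 119), and HSP90B1 is 514 to 1062 in HF and 907 to 1195 in ATE.

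Cats with HF and cats with ATE were compared to ask whether the outcome is reflected in the chaperones. No member and no gene at all (0.0%) was called by limma, and edgeR called 0 genes and DESeq2 1, which is no member. At an unadjusted limma p under 0.05 there were 3 members (5.36%), which is near the 4.41% of all genes. They belong to the ER and differ in direction, with DNAJB12 and DNAJB9 higher and HSP90B1 lower in HF. DNAJB12, a J-protein of the ER membrane, was 18.5 to 54.5 (median 36, 35.5 ± 12.1 SD, n = 6) in HF, 18 and 19.1 in cats 10 and 38 with ATE, and lowest in cat 23 with ATE, from 4 reads. Cat 30 was the HF library that fell among the ATE values. The log2 difference was 1.37 (SE 0.43, limma adjusted p = 0.96).

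DNAJB9 was 36.8 to 72.4 (median 62.8) in HF and 31.6, 31.6 and 41.6 in ATE, a log2 difference of 0.70 (SE 0.29, limma adjusted p = 0.96), with cat 15 of the HF group below cat 23 of the ATE group. HSP90B1 was 514 to 1062 (median 648) in HF and 907 to 1195 in ATE, a difference of -0.60 (SE 0.27, limma adjusted p = 0.96), with cats 11 and 37 of the HF group inside the ATE range. The next 3 by p were DNAJC10 (0.75, SE 0.36), DNAJB5 (-0.79, SE 0.41), a cytosolic J-protein of muscle that was 20.4 to 90.9 in HF and 81.6 to 123 in ATE, and HSPA2 (-1.14, SE 0.66). DNAJC10 was the only member whose groups did not overlap, where 2.18% of all genes had such groups.

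Each flow cell held both outcomes, so the difference could be taken within it. For DNAJB12 it was 2.23, 1.31 and 0.56 on A, B and C, for DNAJB9 0.73, 0.55 and 0.52, and for DNAJC10 1.20, 0.28 and 0.21, each positive on all 3. This set cats 11, 30 and 31 against cat 23 on A, 15 and 35 against 10 on B, and 37 against 38 on C. These genes were among those with the smallest p in the same libraries, so their signs are no separate support. Since the groups of DNAJC10 did not overlap, its sign was fixed on every flow cell. HSP90B1 was at -0.71 on A and -1.04 on B but at 0.23 on C, and HSPA2 at -1.77, -1.39 and 0.69. DNAJB12 depended on cat 23, without which the difference was 0.83, and DNAJB5 on cat 15, without which it was -0.50. The median log2 difference was 0.02 over the ER members, -0.03 over the cytosolic and -0.07 over the mitochondrial members, against -0.002 over all tested genes, and 25 of 56 members were above 0, where 49.8% of all genes were. HSPA5 was alike in both groups in range (133 to 350 and 144 to 300), with a difference of -0.01 (SE 0.33).

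Age was compared over 9 cats and myocardial fibrosis over 8 by Spearman's rho of each gene. No gene was called with age (0.0%) by the exact permutation test, and 1 member passed at an unadjusted p under 0.05 against 4.76% of all genes. With 9 cats a gene alone could pass the adjustment only if its order over the cats followed age without exception, or reversed it. The absence of calls therefore says little. With limma's slope no gene was called either. HSPA4 (APG-2), an HSP110 protein that exchanges nucleotide on HSPA8, was lowest in cat 30, the oldest, at 195 and highest in cat 11 at 292, with a median of 249. Its rho was -0.733 (exact permutation p = 0.0311, adjusted p = 0.897 over 8715 genes) and its r was -0.716 (exact permutation p = 0.0312). Cat 30 and either cat 15 or cat 36 lie farthest from the median age. Leaving out the former pair gave an r of -0.589 and the latter -0.463. After each flow cell's mean was taken off, it was -0.724 (exact permutation p = 0.125 within flow cells).

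The other members named for age were further from the threshold. CCT7 (rho -0.617, exact permutation p = 0.0857), DNAJC8 (-0.60, p = 0.0968 in the same exact test), a nuclear J-protein tied to splicing, DNAJC19 (0.60, exact permutation p = 0.0968), a J-protein of the mitochondrial import motor, HSPA2 (0.583, exact permutation p = 0.108) and HSPA12B (0.533, exact permutation p = 0.148) had an adjusted p of 0.917 to 0.929. Their r was -0.571, -0.532, 0.468, 0.429 and 0.551 (exact permutation p = 0.112, 0.142, 0.204, 0.245 and 0.123). Leaving out cats 30 and 15 gave -0.656, -0.341, 0.905, 0.878 and 0.162, and leaving out cats 30 and 36 gave -0.209, -0.463, 0.835, 0.701 and 0.510. Centred on flow cells they were -0.620, -0.679, 0.555, 0.598 and 0.782 (exact permutation p = 0.177, 0.0729, 0.208, 0.184 and 0.0312 within flow cells).

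The sign of rho with age was negative for 39 of 56 members (69.6%, against 51.5% of all tested genes), with a median of -0.183 against -0.017. By compartment it was negative for 25 of 31 cytosolic members (median -0.25), 8 of 10 ER members (-0.30, with DNAJB9 at 0) and 4 of 8 mitochondrial members (0.04). All 8 TRiC subunits were negative (median -0.367), and so they were with a limma slope on age and with flow cell as a covariate. Without cat 15, 5 of the 8 were. With the libraries labelled as cats 22 and 29 included, 7 of the 8 subunits and 34 of all 56 members were negative, with 21 of 31 in the cytosol, 6 of 10 in the ER (median -0.064) and 5 of 8 in the mitochondrion, where the median turned to -0.145. With reads that were not scaled, 53 of the 56 were negative, as the median of all genes moved to -0.350. The members share the same 9 cats, so these counts are a description and not independent observations. Of 15 ER folding factors outside these families, 12 had a negative rho, 4 of them at an unadjusted p under 0.05 in the exact test, among them PDIA3 and PDIA6, which form disulfide bonds.

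For fibrosis no gene was called either (0.0%), by the exact test or by limma's slope, and 1 member passed at an unadjusted p under 0.05 against 2.83% of all genes. With 8 cats the exact test could not call a gene alone after the adjustment. DNAJA2, the most even member, was 183 in cat 23 and 231 in cat 38, with a median of 218 in these cats. Its rho was -0.738 (exact permutation p = 0.0458, adjusted p = 1.0) and its r was -0.690 (exact permutation p = 0.0547). Cats 23 and 15 lie farthest from the median of fibrosis, and leaving them out gave an r of -0.745. Over the 7 cats of flow cells with more than 1 value, centred, it was -0.787 (exact permutation p = 0.0833 within flow cells).

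CCT2 (rho 0.667), HSPA2 (0.643), TCP1 (0.595), DNAJC17 (-0.524) and DNAJC1 (-0.491) were named next, with exact permutation p = 0.0831, 0.0962, 0.132, 0.197 and 0.222, each with an adjusted p of 1.0. Their r was 0.360, 0.684, 0.410, -0.591 and -0.490 (exact permutation p = 0.392, 0.0657, 0.310, 0.126 and 0.228). Leaving out cats 23 and 15 changed these to 0.624, 0.277, 0.639, -0.465 and 0.491. DNAJC1 thus turned from negative to positive. Centred on flow cells, r was 0.414, 0.777, 0.466, -0.619 and -0.493 (exact permutation p = 0.535, 0.0972, 0.389, 0.160 and 0.271 within flow cells). The sign was positive for 37 of 56 members, against 48.6% of all tested genes. It was positive for 20 of 31 cytosolic members (median 0.143), for 4 of 10 ER members (median -0.06) and for 8 of 8 mitochondrial members, whose rho ran from 0.02 for DNAJC11 to 0.45 for HSPA9. Of the 8 TRiC subunits 7 were positive, and 5 by limma's slope. With flow cell as a covariate of that slope, 2 of 10 ER and 7 of 8 mitochondrial members were positive. With TMM-scaled values 6 of the 8 mitochondrial members were positive, and 5 without cat 15, 30 or 35. With reads that were not scaled, 6 of the 56 were positive and none of the mitochondrial members, as the median of all genes moved to -0.357.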

How the data were processed

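RNA of 12 feline left ventricles was sequenced directly on nanopore flow cells. The study's methods and the submitters' processing notes name Guppy, minimap2 and featureCounts, with reads placed on the cat genome felCat9. Whether counting used strand is not given in the sources used here. The deposited values are a signal: gene counts that the authors scaled by a size factor of the library. All of them (100%) were whole multiples of 1 read within a tolerance of 1e-06, so reads were recovered and used for depth, edgeR and DESeq2. Reads on genes were 789257 to 2263110 per library. Floors and counting errors cover counting error only.

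Groups came from the cat number in the labels, through the outcome, age and fibrosis that the study gives for each cat. Replicates are separate cats. The libraries labelled as cats 22 and 29 were left unassigned. Testing was limited to the 8715 of 30785 genes that reached 10 reads in 3 or more libraries, among the 10 with a known outcome. Groups were compared with limma 3.58.1 on log2(value + 1) with a Benjamini-Hochberg threshold of 0.05 over all tested genes. Fold changes are on that scale and understate those of low genes. Age and fibrosis were tested by exact two-sided permutation of Spearman's rho, with Benjamini-Hochberg adjustment. Alternatives were unscaled reads, TMM-scaled CPM, 2 other filters, pseudocounts of 0.5 and 2, edgeR 4.0.16, DESeq2 1.42.0, subsets of libraries, each library left out in turn, flow cell as a covariate, and, for the traits, limma slopes, Pearson's r and total fibrosis. With 8 cats the smallest untied exact p is 4.96e-05, which a gene alone could not bring past the adjustment over all tested genes. Correlations within 1e-09 of 0 were counted as 0.

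Genes were named by a rule: the 10 members with the highest median, the 6 with the highest CV, members called between flow cells, the 3 in each direction with the smallest p for outcome, age and fibrosis, classical heat-inducible and ER stress members, and the extremes of a compartment. Others named here were chosen after their values were seen. The members and lists were chosen with earlier results of these data known. R 4.3.3, Python 3.11.15, scipy 1.17.1 and matplotlib 3.10.9 were used. No gene lengths or sequences were used here.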

Additional observations from a re-analysis of the deposited data

Results flagged for a closer look

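Of 35 named members examined over the 6 HF libraries, 1 had a library that stood apart. DNAJC19, a J-protein of the mitochondrial import motor, was 61.3 in cat 15 and 39.1 to 47.2 in the other 5 HF libraries, a gap of 0.634 of the whole range where 0.625 is the critical value for 6 samples. Chance alone marks about 1 in 20 such groups. Outside the HF group DNAJC19 was higher still in cat 29 (75.4).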

How the results depend on the processing

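No paired analysis was possible because the replicate numbers only name separate cats. No gene and no member was called for age or fibrosis under any alternative run. For the exact tests this says little. With 8 cats or fewer no gene alone could pass the adjustment, and with 9 at most a gene in perfect order with age could. No member was called for HF against ATE. There, the number of genes called was 0 to 1 on leaving out a library (1 without cat 37), 1 with every gene that had a read and 1 with DESeq2. Between flow cell A and the others, the 446 genes called became 830 with DESeq2, 80 without scaling, 4 within HF, 183 against B and 67 against C. The 2 members became 4 with the stricter filter of 20 reads in 5 libraries, 4 with edgeR, 7 with DESeq2, 1 with known outcomes alone, and 0 without scaling, within HF, against B and against C. Leaving out a library gave 51 to 501 genes (51 without cat 11, 129 without cat 31, 295 without cat 15) and 0 to 6 members (0 without cat 11 or 31, 1 without cat 15, 29 or 36, 5 without cat 30, 6 without cat 23).

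The cytosolic median was 0.34 within HF, 0.274 against B and -0.018 against C. Without scaling the medians were 0.47 in the cytosol, 0.70 in the ER and 0.27 in the mitochondrion, as that of all genes moved to 0.41. Leaving out a library gave 0.04 to 0.16, 0.12 to 0.46 and -0.16 to -0.10.

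Members that were not called turned in sign as follows. DNAJB1 was at 0.08 without scaling, 0.08 with known outcomes alone, 0.13 within HF and 0.17 against B. HSP90B1 was at 0.35, 0.08 and 0.11 without scaling, within HF and against B, and DNAJC3 at -0.05 within HF and -0.19 against B. HSPA8 was at -0.00298 with DESeq2. Against C, HSPA8 was at -0.16, DNAJA1 at -0.19 and HSPE1 at -0.21. Leaving out a library gave -0.07 to 0.12 for HSPA8 and -0.23 to 0.08 for HSP90B1. Without scaling, the rho of DNAJC19 with age was -0.32 and that of CCT2 with fibrosis -0.17. The cause of these changes was not tested, beyond the smaller numbers of libraries that subsets hold.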
